A study of Mus musculus with 14 samples.

Results

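The B cell receptor complex and the antigens that mark mature B cells were examined in mouse bone marrow cells sorted as Sca1-positive and cKit-negative. The 9 genes, listed by name, were Cd79a, Cd79b, Ms4a1, Cd22, Cd72, Cr2, Fcer2a, Blk and Blnk. Every probe set whose platform annotation gives one of these symbols alone was taken, which gave 12 probe sets of the 22626 tested and all 9 genes of the 12393 measured. The donors carried a BPLER instigating tumour (Instigator, n = 5 arrays), a PC3 non-instigating tumour of matched size (Non-instigator, n = 5) or a Matrigel control implant (Matrigel, n = 4). BPLER is a line of transformed human breast epithelial cells, PC3 a human prostate carcinoma line and Matrigel a basement membrane extract. Each tumour group stands on a single line, and the labels used here do not state the strain, genotype, sex and age of the hosts and whether animals were pooled. Array Instigator 5 was grouped by its title and source, although its description names the PC3 tumour.

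A B cell senses antigen through a membrane immunoglobulin that has no signalling tail of its own. Cd79a and Cd79b encode the paired chains that carry the signal inward, where Src family kinases such as Blk phosphorylate them and the adaptor Blnk relays the signal to Btk and phospholipase C. Cd22 and Cd72 dampen the signal through the phosphatase Ptpn6, and Cr2 lowers the threshold for antigen coated with complement. In the marrow, Cd79a, Cd79b and Blnk are already made by precursor B cells, while Ms4a1, Cd22, Cr2 and Fcer2a mark later stages and recirculating B cells.

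The values are log2 of RMA intensity, a scale on which a difference of 1 is a doubling. Median intensity per array ran from 119.5 to 145.4. Signal at the 5' end of beta-actin lay below that at its 3' end by log2 differences of -3.41 on Instigator 4 and -0.81 to -0.51 elsewhere. For Gapdh the same differences were -4.03 on Instigator 4 and -1.16 to -0.73 elsewhere. On the first principal component, with 35.4% of the variance, Instigator 4 lay at 73.79, against -19.57 to 7.98 elsewhere. Matrigel 3 lay at -55.71 on the second principal component, with 19.3% of the variance, against -10.79 to 7.80 elsewhere. The sort gate could be checked only in part, since no probe set was found with the Sca1 gene, Ly6a, as its single symbol. Kit lay at 7.36 to 7.93 in Instigator, 6.82 to 7.97 in Non-instigator and 7.18 to 8.05 in Matrigel arrays at its brighter probe set, the 57.6 percentile of mean level. At the dimmer set it lay at 4.65 to 4.96, 4.67 to 5.01 and 4.75 to 5.52 in the same groups, the 16.8 percentile. Values without Instigator 4 or Matrigel 3 are given where they matter. In bulk RNA of this kind, fewer B cells and less RNA per B cell cannot be told apart. Differences are those of limma, with p-values adjusted by Benjamini-Hochberg over all 22626 probe sets.

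The promoters are shown because the genes varied together from array to array, as described further on. The RefSeq table of assembly GRCm38.p6 held 8 promoter windows for 6 of the 9 genes, Cd79a, Cd22, Cd72, Cr2, Fcer2a and Blnk, each window covering 250 bases before to 50 after a start site. Both strands were searched for the octamer ATGCAAAT, which POU factors bind, and for the palindrome TCCCNNGGGA, which EBF1 binds. These motifs do not overlap each other in the windows. The octamer was in 1 of the 8 windows, that of Blnk, and in 1.74% of all 32851 windows of this length. The palindrome was in 1 of the 8, that of Cd22, and in 0.904% of all windows. In Blnk the match lies on the opposite strand, as ATTTGCAT, and its first base is 130 bases before the start site. In Cd22 the palindrome begins 49 bases before it. A match is a run of letters in a window, and only the exact letters were searched. A binding site that departs from them would be missed. Neither motif was matched in this way in the Cd79a window, which does not show that the factors have no site there. Each sequence below runs 5′ to 3′ on the gene's strand, with the motif in capitals. The Blnk window is chr19:40994172-40994471 on the minus strand, the Cd22 window chr7:30878979-30879278 on the minus strand and the Cd79a window chr7:24897247-24897546 on the plus strand.
Blnk: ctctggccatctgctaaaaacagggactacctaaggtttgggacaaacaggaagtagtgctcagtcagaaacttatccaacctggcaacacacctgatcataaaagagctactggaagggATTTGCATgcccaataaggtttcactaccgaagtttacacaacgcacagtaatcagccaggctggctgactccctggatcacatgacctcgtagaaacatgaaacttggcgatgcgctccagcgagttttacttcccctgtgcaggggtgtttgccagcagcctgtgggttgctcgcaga
Cd22: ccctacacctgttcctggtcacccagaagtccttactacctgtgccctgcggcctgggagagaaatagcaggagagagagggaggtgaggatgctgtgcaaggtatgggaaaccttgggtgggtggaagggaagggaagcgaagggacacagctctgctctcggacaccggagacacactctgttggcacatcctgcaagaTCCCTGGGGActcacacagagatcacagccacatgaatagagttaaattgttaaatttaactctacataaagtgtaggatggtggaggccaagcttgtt
Cd79a: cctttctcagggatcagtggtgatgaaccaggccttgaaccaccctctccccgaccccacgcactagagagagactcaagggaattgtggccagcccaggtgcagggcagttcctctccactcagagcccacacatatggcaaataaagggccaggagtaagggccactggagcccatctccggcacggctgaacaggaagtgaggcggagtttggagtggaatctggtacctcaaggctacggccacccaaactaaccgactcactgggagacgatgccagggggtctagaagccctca

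All 9 genes had a lower mean in Instigator than in Matrigel arrays, and limma called none of them (adjusted p from 0.445 to 0.713). The median difference of the 9 genes was -0.44 on the log2 scale, against -0.016 over all 12393 genes. By this rule 0% of probe sets were called in this comparison, and the lower direction was shared by 54.1% of genes, or 35.3% with each array centred on its median. At an unadjusted p under 0.05, 2 of the 9 were lower, Cd79a and Cd79b, against 5.16% of all genes. The groups overlapped at each of the 9 genes, and across all genes 1.21% lay lower without overlap. Leaving out any 1 array kept all 9 means lower, with medians from -0.58 to -0.33. The count at an unadjusted p under 0.05 varied more, being 0 without Instigator 3 (4.57% of all genes in that fit), Matrigel 1 (6.59%) or Matrigel 2 (4.52%) and 0 without Instigator 4 and Matrigel 3 together (2.60%). It was 5 without Instigator 2 (5.46%) or Matrigel 4 (6.17%). Without Instigator 2, Cd79a, Cd79b and Cr2 no longer overlapped, against 2.35% of genes. The count was 1 without Matrigel 3 (2.53%), Instigator 5 (5.77%) or Non-instigator 2, 3 or 4 (4.53% to 4.79%), 3 without Non-instigator 5 (4.87%) and 4 without Non-instigator 1 (5.20%). Without Instigator 4 the median was -0.55, and without both it and Matrigel 3 it was -0.53.

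Both signalling chains of the receptor lay lower in most Instigator arrays than in the Matrigel arrays. Cd79a lay at 9.08, 9.73, 8.23, 9.24 and 9.22 in the Instigator arrays, against 9.69, 9.96, 10.09 and 9.28 in the Matrigel arrays. Instigator 2 alone reached into the Matrigel range, and the other 4 Instigator arrays lay below every Matrigel array. The Cd79a mean was 9.10 ± 0.54 (SD, n = 5) for Instigator, against 9.75 ± 0.36 (SD, n = 4) for Matrigel, a difference of -0.65 (SE 0.30, 95% confidence interval -1.29 to -0.018, limma adjusted p = 0.478), which is 1.57-fold lower. Cd79b lay at 10.30, 10.67, 9.44, 9.35 and 10.13 in the Instigator arrays, against 10.75, 10.92, 10.66 and 10.35 in the Matrigel arrays. Again 4 of 5 Instigator arrays were below all Matrigel arrays, and here Instigator 4 was the lowest of all 14. The Cd79b difference was -0.69 (SE 0.28, 95% confidence interval -1.29 to -0.091, limma adjusted p = 0.445), and -0.53 without Instigator 4.

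Over all arrays, Blk and Blnk, the kinase and the adaptor next to the receptor, differed less than Cd79a and Cd79b. Blk lay at 8.40, 8.75, 7.53, 8.53 and 8.58 in the Instigator arrays, against 8.81, 8.70, 8.74 and 8.41 in the Matrigel arrays. Without the low Instigator 3, the Instigator arrays span nearly the Matrigel range. Its difference was -0.31 (SE 0.22, 95% confidence interval -0.77 to 0.16, limma adjusted p = 0.613), and -0.098 without Instigator 3. Blnk lay at 8.39, 8.86, 7.33, 9.06 and 8.61 in the Instigator arrays, against 8.83, 9.02, 8.89 and 8.62 in the Matrigel arrays. Instigator 4 was above all Matrigel arrays and Instigator 3 far below them. The Blnk difference was -0.39 (SE 0.30, 95% confidence interval -1.03 to 0.25, limma adjusted p = 0.630), -0.11 without Instigator 3 and -0.55 without Instigator 4. Cd79b stood at -0.53 without Instigator 4, so the order of Blnk and Cd79b rested on that array.

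Among the surface antigens, Ms4a1, which encodes CD20, a protein spanning the B cell membrane, had the largest difference of the 9 genes in this comparison. At its brighter probe set 1450912_at it lay at 9.68, 10.32, 8.47, 10.26 and 9.46 in the Instigator arrays, against 10.12, 10.67, 10.76 and 9.94 in the Matrigel arrays. Instigator 2 and 4 reached into the Matrigel range, and the other 3 lay below it. The difference was -0.73 (SE 0.36, 95% confidence interval -1.51 to 0.042, limma adjusted p = 0.506), and -0.44 without Instigator 3. At the dimmer set 1423226_at, Ms4a1 lay at 8.56, 9.11, 7.61, 7.90 and 8.47 in the Instigator arrays, against 9.06, 9.71, 9.53 and 8.85 in the Matrigel arrays. Here 4 of 5 Instigator arrays were below all Matrigel arrays. Its difference of -0.96 (SE 0.34, 95% confidence interval -1.69 to -0.23, limma adjusted p = 0.442) was the largest of the 12 probe sets.

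Cr2 encodes complement receptor 2, a co-receptor on the B cell surface. It lay at 6.69, 7.40, 6.21, 6.66 and 6.68 in the Instigator arrays, against 7.29, 7.69, 7.66 and 6.75 in the Matrigel arrays. All Instigator arrays but the second were below the Matrigel range, and Matrigel 4 was close to them. The Cr2 difference was -0.62 (SE 0.29, 95% confidence interval -1.25 to 0.012, limma adjusted p = 0.490). Fcer2a encodes CD23, the low-affinity IgE receptor of mature B cells. At 1422122_at it lay at 6.46, 6.77, 6.42, 6.89 and 6.55 in the Instigator arrays, against 7.18, 7.27, 7.14 and 6.52 in the Matrigel arrays. Every Instigator array was below Matrigel 1, 2 and 3, while Matrigel 4 lay among the Instigator arrays. Its difference was -0.41 (SE 0.26, 95% confidence interval -0.98 to 0.15, limma adjusted p = 0.582), and -0.58 without Matrigel 4. The other Fcer2a set, 1451713_a_at, ran only from 4.70 to 5.31 over all arrays, below the 25th percentile of each array (5.40 to 5.65).

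The inhibitory receptors were Cd22, a lectin that binds sialic acid, and Cd72, a lectin-like receptor. Cd22 lay at 8.48, 8.99, 7.28, 9.46 and 8.52 in the Instigator arrays at 1419768_at, against 9.08, 9.19, 9.09 and 8.32 in the Matrigel arrays. The Instigator arrays lay on both sides of the Matrigel range, with Instigator 4 above it and Instigator 3 below. The difference was -0.37 (SE 0.38, 95% confidence interval -1.18 to 0.44, limma adjusted p = 0.713), -0.056 without Instigator 3 and -0.60 without Instigator 4. Cd72 lay at 8.17, 8.35, 7.26, 7.72 and 7.90 in the Instigator arrays, against 8.58, 8.73, 7.95 and 8.04 in the Matrigel arrays. Cd72 was the gene at which Matrigel 3 was the lowest of its group, and the groups overlapped. The Cd72 difference was -0.44 (SE 0.22, 95% confidence interval -0.92 to 0.030, limma adjusted p = 0.509), and -0.57 without Matrigel 3.

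**Figure D1:**
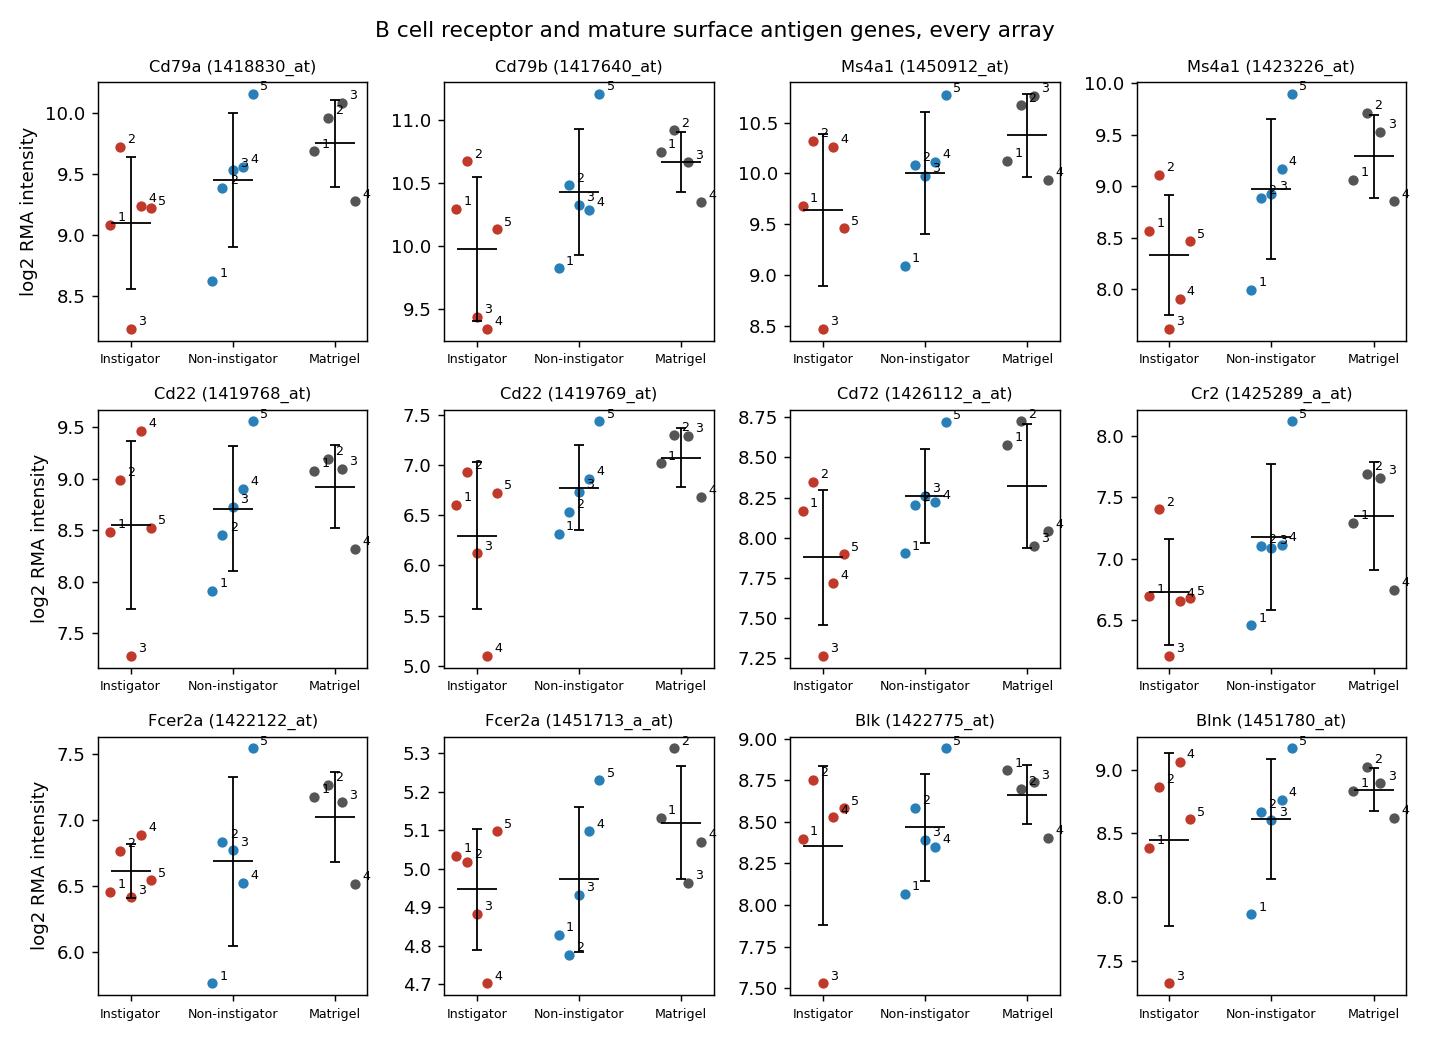
Log2 RMA intensity of the 12 probe sets on every array, with a panel per probe set. Points are arrays with their replicate number, and the bar and whiskers are the group mean and SD (n = 5 Instigator, 5 Non-instigator and 4 Matrigel). Instigator 3 and Non-instigator 1 lie low and Non-instigator 5 high at most probe sets, and the groups overlap.

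The Non-instigator arrays also had a lower mean than Matrigel arrays at all 9 genes, by smaller amounts. The median difference was -0.23, against -0.036 over all genes, and 61.7% of genes shared the lower direction, or 43.1% after median centring. None passed limma's test (adjusted p from 0.986 to 0.990), as for 0% of all probe sets. At an unadjusted p under 0.05 the count was 0 of 9, against 1.17% of genes, and 0 of 9 lay lower without overlap, against 0.403%. Cd79a lay at 8.62, 9.39, 9.53, 9.56 and 10.16 in the Non-instigator arrays, from below to above all Matrigel arrays. Ms4a1 lay at 9.09, 10.08, 9.97, 10.11 and 10.77 in the Non-instigator arrays, again spanning the Matrigel range. The Ms4a1 mean was 10.01 ± 0.60 (SD, n = 5) for Non-instigator, against 10.37 ± 0.41 (SD, n = 4) for Matrigel, a difference of -0.37 (SE 0.36, 95% confidence interval -1.14 to 0.41). Fcer2a differed by -0.34 (SE 0.26), Cd79a by -0.30 (SE 0.30) and Cd79b by -0.24 (SE 0.28). Blnk differed by -0.23, Cd22 by -0.21, Blk by -0.20, Cr2 by -0.17 and Cd72 by -0.062. The median depended on single arrays, being -0.093 without Non-instigator 1, -0.42 without Non-instigator 5 and -0.37 without Matrigel 4. Cd72 turned to 0.028 and Cr2 to 0.0096 without Non-instigator 1, and Cd72 to 0.023 without Matrigel 1 and 0.072 without Matrigel 2.

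Set directly against each other, the tumour groups differed at all 9 genes in the same direction, with lower means in Instigator arrays. The median difference was -0.35, against 0.025 over all genes, where 41.8% were lower. None of the 9 passed limma's test (adjusted p from 0.813 to 0.964), as for 0% of all probe sets. The unadjusted count was 0 of 9, against 2.92% of genes, and 0 of 9 lay lower without overlap, against 0.436%. Cd79b lay at 9.83, 10.48, 10.33, 10.29 and 11.21 in the Non-instigator arrays, and its Instigator values, given above, lay between 9.35 and 10.67, below the highest of these. The Cd79b mean was 9.98 ± 0.57 (SD, n = 5) for Instigator, against 10.43 ± 0.50 (SD, n = 5) for Non-instigator, a difference of -0.45 (SE 0.26, 95% confidence interval -1.01 to 0.12). Cr2 differed by -0.45 (SE 0.28), Cd72 by -0.38 (SE 0.21), Ms4a1 by -0.37 (SE 0.34) and Cd79a by -0.35 (SE 0.28). The remaining differences were -0.16 for Blnk, -0.16 for Cd22, -0.11 for Blk and -0.074 for Fcer2a.

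This direction was not shared by all 9 genes once certain arrays were left out. Without Instigator 3 the median was -0.074 and 6 of 9 genes were lower, with Cd22 at 0.16, Blnk at 0.12 and Blk at 0.097. Without Non-instigator 5 it was -0.18 with 6 of 9 lower, Fcer2a standing at 0.14, Cd22 at 0.050 and Blk at 0.0084. Other arrays left out gave larger differences. Without Instigator 2 the median was -0.50 and 3 of 9 genes had an unadjusted p under 0.05 (Cd79b, Cd72 and Cr2), against 3.75% of genes. Without Non-instigator 1 it was -0.47 with 4 of 9 (Cd79a as well), against 4.66%. With Instigator 5 counted as Non-instigator, after its description, the median was -0.23 and all 9 means stayed lower. The 3 comparisons share their arrays, so that their directions are not separate evidence.

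**Figure D2:**
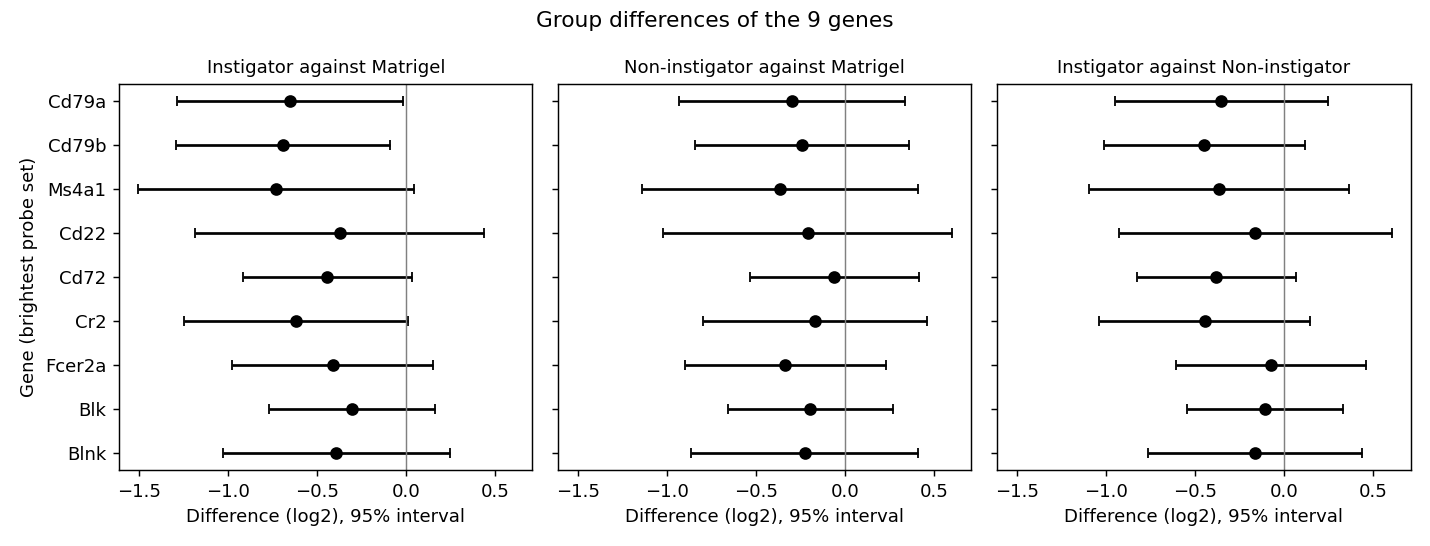
Difference in log2 intensity for the 9 genes in the 3 comparisons, as points with 95% confidence intervals from limma. All 27 points lie below 0, and the intervals of Cd79a and Cd79b in Instigator against Matrigel are the only ones that do not reach 0.

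The 9 genes varied widely and together from array to array. Their ranges over the 14 arrays ran from 1.41 for Blk to 2.29 for Ms4a1, at percentiles 91.6 to 99.1 of the ranges of all genes. Within the groups, the range of Blk was 1.22 in Instigator, 0.87 in Non-instigator and 0.41 in Matrigel arrays. That of Ms4a1 at its brighter set was 1.85, 1.67 and 0.83 in the same groups. The mean of the 9 genes was 7.58 on Instigator 3 and 7.95 on Non-instigator 1, against 8.41 to 9.35 on the other 12 arrays. Instigator 3 was the lowest of all 14 arrays at 7 of the 9 genes and among the lowest pair at all 9. Non-instigator 1 was the lowest of its group at all 9, and Non-instigator 5 the highest of its group at all 9 and of all arrays at 8. The distance between Non-instigator 1 and 5, arrays of 1 group, was 1.53 for Cd79a and 1.66 for Cr2 and so larger than any difference between group means of those genes.

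Non-instigator 2, 3 and 4 lay close together at several of the genes. Their Cd79a values were 9.39, 9.53 and 9.56, their Cr2 values 7.10, 7.09 and 7.12 and their Blk values 8.58, 8.39 and 8.35. They were farther apart at Cd22, with 8.45, 8.73 and 8.90, and at Fcer2a, with 6.84, 6.78 and 6.52. In the Matrigel group, Matrigel 4 was the lowest array at 8 of 9 genes, the exception being Cd72, and Matrigel 2 the highest at 6. In the Instigator group, Instigator 2 was the highest at 6 genes and Instigator 4 at the other 3, Cd22, Fcer2a and Blnk.

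Over the 36 pairs of genes, Pearson's r across the 14 arrays ran from 0.55 to 0.96 with a median of 0.81, given as a description. With each group centred on its own mean the median r was 0.78, so centring changed it little. The closest pairs were Cd79a with Ms4a1 (r = 0.958) and Cd22 with Blnk (r = 0.957), and the loosest Cd79b with Cd22 (r = 0.554). Cd79a followed the mean of the other 8 genes most closely, with r = 0.977 over the 14 arrays and 0.962 without Instigator 3. The lowest values were 0.795 for Cd79b and 0.808 for Cd72, and without Instigator 3 they were 0.720 and 0.677. The points share a platform and a normalization.

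**Figure D3:**
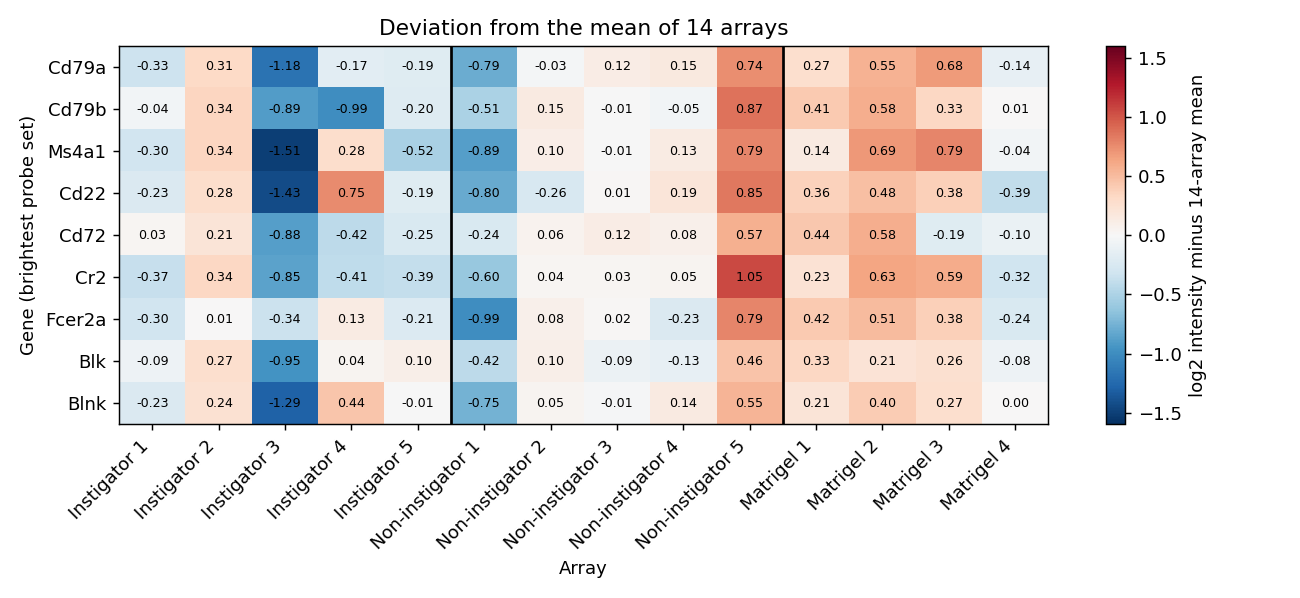
Log2 intensity of each gene on each array minus its mean over 14 arrays, by gene (rows) and array (columns), with lines between the groups. Instigator 3 is blue throughout (-1.51 to -0.34), Non-instigator 5 red throughout (0.46 to 1.05), and Instigator 4 mixes both (-0.99 to 0.75).

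Instigator 4 broke the shared pattern. Its 9 deviations from the genes' own means had an SD of 0.52, and the other 13 arrays had SDs of 0.066 to 0.359. They ran from -0.99 for Cd79b to 0.75 for Cd22. The same array split probe sets of a single gene. Cd22 at 1419768_at was 9.46 on Instigator 4, second only to Non-instigator 5 among the 14 arrays, while Cd22 at 1419769_at was 5.10, the lowest of the 14. The gap between the Cd22 sets was 4.37 there, against 1.16 to 2.12 on the other 13 arrays. For Ms4a1 the gap was 2.36 on Instigator 4 and 0.86 to 1.24 on the others. For Fcer2a it was 2.19, inside the 0.94 to 2.32 of the others. The correlation between the Cd22 sets was 0.287 over 14 arrays and 0.950 without Instigator 4, and that between the Ms4a1 sets 0.844 and 0.983. The part played by RNA quality, for which the actin control value stands apart on the same array, was not tested.

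The choice of probe set therefore set the size of a difference. In Instigator against Matrigel, the Cd22 difference was -0.37 at the brighter and -0.78 at the dimmer set. Leaving out Instigator 4 brought the same sets to -0.60 and -0.48. The Ms4a1 sets gave -0.73 and -0.96 on the full data, and -0.89 and -0.85 when Instigator 4 was left out. For both genes the sets lay closer together once that array was left out.

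**Figure D4:**
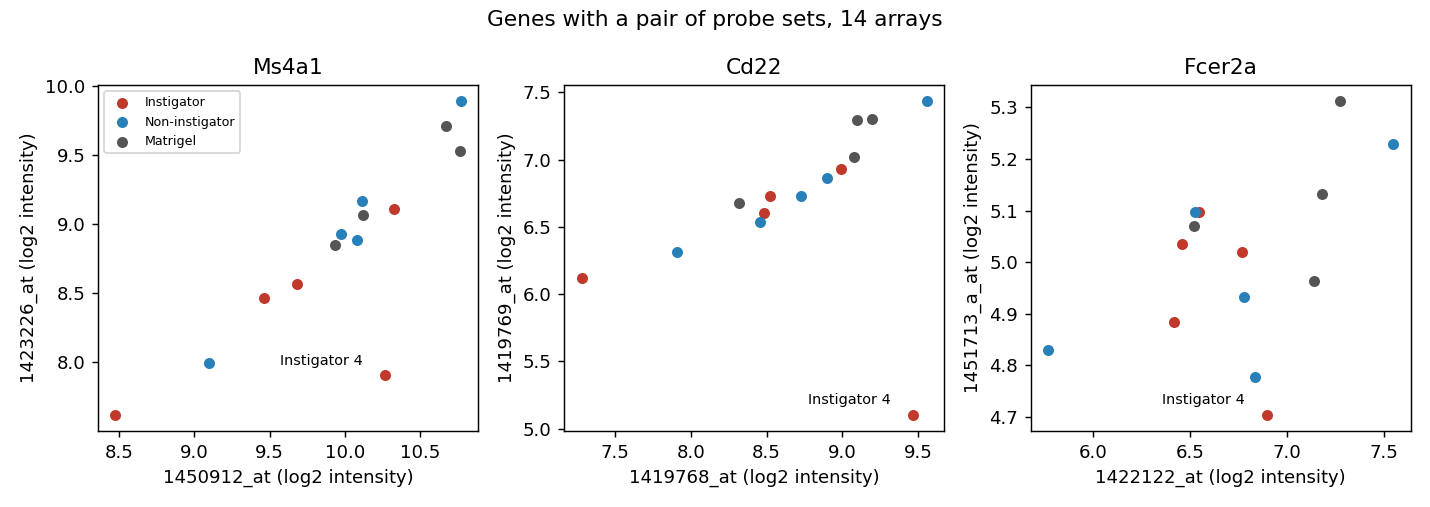
Log2 intensity at the dimmer (vertical) against the brighter probe set (horizontal) of Ms4a1, Cd22 and Fcer2a, a point per array coloured by group. Instigator 4 falls well below the line of the other 13 arrays for Ms4a1 and Cd22.

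The other genes of the pathway were taken from lists chosen with earlier results of these data known. The enzymes and adaptors that relay the signal inside the cell had a median near 0. Of 13 measured relay genes, 7 were lower and 6 higher in Instigator than in Matrigel arrays, with a median of -0.060 and 0 called by limma. Syk, the kinase that docks on the receptor chains, differed by 0.15 (SE 0.22), Btk by 0.21 (SE 0.16) and phospholipase Plcg2 by 0.35 (SE 0.18). Dapp1 and Pik3ap1, adaptors that link the receptor to phosphoinositide signalling, differed by -0.43 (SE 0.18) and -0.40 (SE 0.16), both at an unadjusted p under 0.05. These 2 of the 13 relay genes were lower at that level, against 5.16% of all genes. Without Instigator 4, an alternative chosen after seeing the data, Syk stood at -0.082, Btk at 0.079, Plcg2 at 0.14, Dapp1 at -0.25 and Bcl10 at -0.12, and the list median at -0.12. Many relay genes are also used by myeloid cells. Plcg2 was higher without overlap of the groups, and Bcl10, part of the path to NF-kB, was lower without overlap, with a difference of -0.28 (SE 0.15). They were the only 1 higher and 1 lower of the 13 without overlap, against 139 of 12393 genes higher and 1.21% lower. In Non-instigator against Matrigel the relay median was 0.052 and in Instigator against Non-instigator -0.063. There Dapp1 stood at -0.21 and -0.21, Pik3ap1 at -0.26 and -0.14, and Plcg2 at 0.052 and 0.30.

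Co-receptors and activating surface proteins lay lower in Instigator than in Matrigel arrays at 10 of 10 measured genes, with a median of -0.29 and 0 called. The chemokine receptors Cxcr5 and Ccr6, which guide B cells to follicles and to inflamed tissue, differed by -0.59 (SE 0.31) and -0.54 (SE 0.20). The receptors for the survival factors BAFF and APRIL, Tnfrsf13c and Tnfrsf13b, differed by -0.53 (SE 0.31) and -0.53 (SE 0.14), and at Tnfrsf13b the groups did not overlap. It was the 1 gene of the 10 lower without overlap, against 1.21% of all genes. Against Matrigel, 9 of the 10 were lower in Non-instigator arrays, with a median of -0.19, and 6 of the 10 were lower in Instigator than in Non-instigator arrays, with a median of -0.24. Without Instigator 4, 9 of the 10 were lower in Instigator than in Non-instigator arrays, with a median of -0.20. The other inhibitory receptors and phosphatases had a median of -0.12 in Instigator against Matrigel, with 7 of 10 lower and 0 called. Lair1, an inhibitory collagen receptor, differed by -0.28 (SE 0.18), Cd200 by -0.24 (SE 0.22), Cd5 by -0.24 (SE 0.27) and Pirb by 0.21 (SE 0.14). The Cd200 probe set was dim, with means of 4.64 in Instigator and 4.88 in Matrigel arrays, below the 25th percentile of every array. Cd5 is also counted among the T cell markers given below. Ptpn6, the phosphatase that Cd22 and Cd72 recruit, differed by -0.095 (SE 0.14), and by 0.026 without Instigator 4. Without that array the list median was -0.045, with 6 of 10 lower, and Lair1 stood at -0.43 and Cd5 at -0.43.

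Genes of earlier and later stages of the lineage mostly had lower means in Instigator than in Matrigel arrays. Of 10 pre-B receptor and recombination genes, 7 were lower in Instigator than in Matrigel arrays, with a median of -0.17. Igll1, a surrogate light chain of the pre-B receptor, differed by -0.88 (SE 0.24) and Vpreb3 by -0.54 (SE 0.22), both without overlap of the groups. In this comparison 2 of the 10 pre-B, 2 of 13 transcription factor and 1 of 13 plasma cell genes were lower without overlap. Across all genes the share was 1.21%. The recombinase Rag1 differed by -0.48 (SE 0.33) and Mme by -0.25 (SE 0.15). The Mme probe set was dim, with means of 5.10 in Instigator and 5.36 in Matrigel arrays, below the 25th percentile of every array. Igll1 stood at -0.25 in Non-instigator against Matrigel and -0.63 in Instigator against Non-instigator. Of 13 lineage transcription factors, 10 were lower, with a median of -0.24. Spib, an Ets factor of B and plasmacytoid dendritic cells, differed by -0.77 (SE 0.28) without overlap, and it stood at -0.32 in Non-instigator against Matrigel and -0.46 in Instigator against Non-instigator. Ebf1, which specifies the B lineage, differed by -0.49 (SE 0.38), Bach2, which holds back plasma cell fate, by -0.45 (SE 0.29), and the octamer coactivator Pou2af1 by -0.47 (SE 0.28) without overlap. Pax5, which turns on Cd79a, differed by 0.08 (SE 0.08) at a dim probe set, whose means of 5.78 and 5.70 lie near the 25th percentile of the arrays, and the files carry no detection call for it. Of 13 plasma cell genes, all were lower, with a median of -0.18, or -0.34 without Instigator 4. The proteoglycan Sdc1 differed by -0.94 (SE 0.36) without overlap, the transcription factor Irf4 by -0.74 (SE 0.37), the survival receptor Tnfrsf17 by -0.63 (SE 0.26) and Cd28 by -0.61 (SE 0.31). In Instigator against Non-instigator these stood at -0.59, -0.61, -0.66 and -0.61. None of these genes passed limma's test in Instigator against Matrigel (smallest limma adjusted p = 0.439). In Non-instigator against Matrigel the pre-B median was 0.016 with 4 of 10 lower, the plasma cell median 0.0016 with 6 of 13 lower, and the transcription factor median -0.093 with 8 of 13 lower. In Instigator against Non-instigator the medians were -0.19, -0.13 and -0.27 for the pre-B, transcription factor and plasma cell lists. No test of the difference between these lists and the 9 genes was made.

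Markers of other cells differed alongside the 9 genes, and their part in the result was not tested. T cell markers were lower in Instigator than in Matrigel arrays at 11 of 11 measured genes (median -0.24), NK markers at 10 of 11 (median -0.095) and dendritic cell markers at 9 of 10 (median -0.44). At an unadjusted p under 0.05 from limma, 6 dendritic cell, 2 T cell and 0 NK markers were lower, and 1 NK marker was higher. Across all genes 5.16% were lower and 450 of 12393 higher at that level. With Instigator 4 left out, the T cell, NK and dendritic cell medians were -0.30, -0.14 and -0.36, and that of the 9 genes was -0.55. Neutrophil markers were higher at 11 of 12 (median 0.21), and basophil and mast cell markers at 7 of 8 (median 0.38). Monocyte and macrophage markers were higher at 6 of 9 (median 0.098, or 0.036 without Instigator 4) and erythroid markers at 5 of 8 (median 0.064, or -0.011 without Instigator 4). In Non-instigator against Matrigel the NK median was 0.20 with 11 of 11 higher, and the T cell median 0.054 with 9 of 11 higher, while the dendritic cell median was -0.30. In Instigator against Non-instigator, NK markers were lower at 10 of 11 genes (median -0.42), T cell markers at 11 of 11 (median -0.24) and dendritic cell markers at 8 of 10 (median -0.26). At an unadjusted p under 0.05 from limma, 6 NK, 1 T cell and 0 dendritic cell markers were lower there, against 2.92% of all genes. Without Instigator 4 the NK, T cell and dendritic cell medians were -0.35, -0.32 and -0.16. The mean level of the neutrophil list ran from 11.86 to 12.10 in Instigator, 11.72 to 12.04 in Non-instigator and 11.50 to 11.86 in Matrigel arrays. That of the dendritic cell list ran from 7.50 to 8.21 in Instigator, 7.54 to 8.39 in Non-instigator and 8.10 to 8.50 in Matrigel arrays. The T cell list ran from 7.36 to 8.06 in Instigator, 7.51 to 8.69 in Non-instigator and 7.90 to 8.22 in Matrigel arrays. No marker is at 0, since RMA intensities have no 0.

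Several lists, but not all, shared their lowest or highest array with the 9 genes. Instigator 3, lowest for the 9 genes, also had the lowest list mean of the 14 arrays for T cell (7.36), NK (8.82), dendritic cell (7.50), plasma cell (8.94), pre-B (8.03) and erythroid markers (7.97). It was also lowest for the lineage transcription factor (7.87), signal relay (8.57) and inhibitory receptor lists (8.65), and ranked 2nd from the bottom for the co-receptor list (8.24). Its neutrophil mean of 12.00 ranked 11th from the bottom. Non-instigator 1 was the second lowest for the T cell, dendritic, plasma cell, pre-B and transcription factor lists and the third highest for neutrophil markers (12.02). It was lowest for the co-receptor list (8.19) and ranked 3rd from the bottom for the inhibitory and 4th for the relay list. Non-instigator 5 was the highest for the NK (9.86), plasma cell (9.92), pre-B (9.08) and erythroid lists (8.60) and the third lowest for neutrophil markers (11.72). That array was also highest for the co-receptor (9.075), inhibitory receptor (8.985), transcription factor (8.50) and relay lists (8.82). The relay list means spanned only 8.57 to 8.82 over the arrays. Other lists differed from this order. The highest T cell mean was on Non-instigator 4 and the highest dendritic cell mean on Matrigel 2, Non-instigator 1 ranked 6th from the bottom for NK and 4th for erythroid markers, and for monocyte markers Instigator 3 ranked 12th and Non-instigator 5 the third. Instigator 3 and Non-instigator 1 had actin control values of -0.56 and -0.66, inside the range of the other arrays but Instigator 4.

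**Figure D5:**
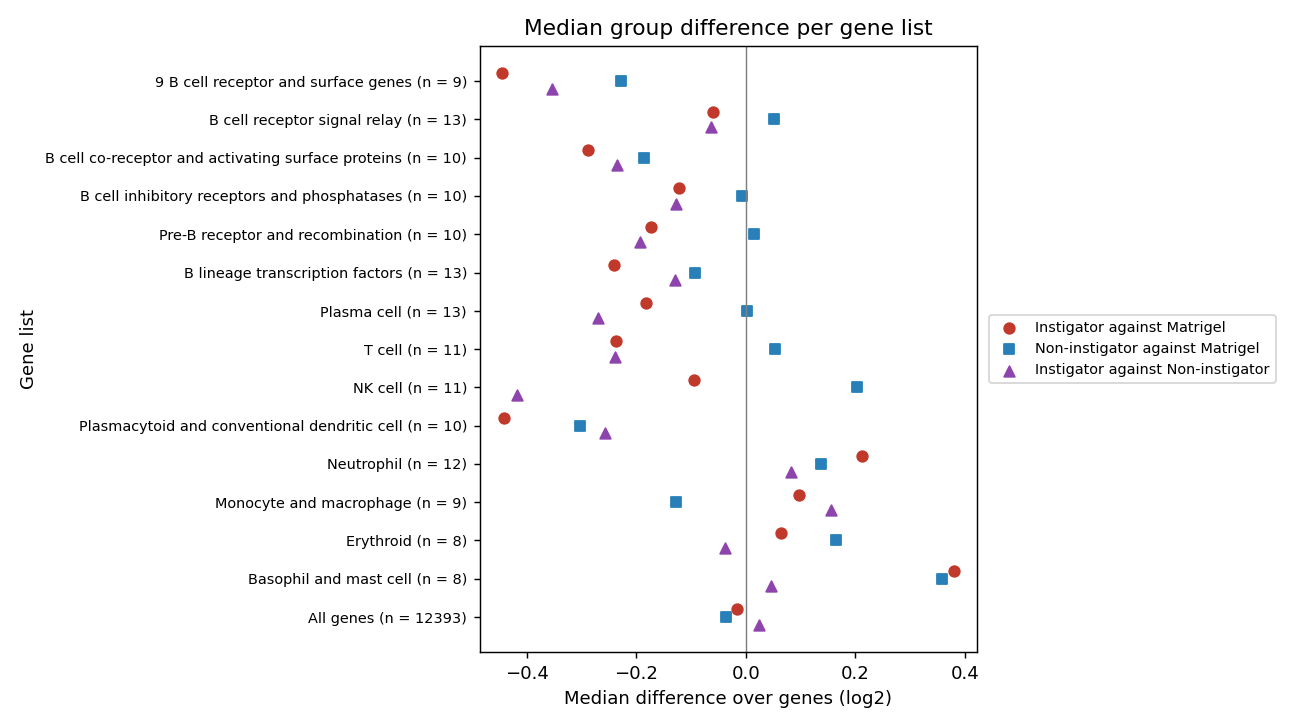
Median difference in log2 intensity over the measured genes of each list (n beside its name) in the 3 comparisons. The 9 B cell receptor and surface genes stand at -0.44, -0.23 and -0.35, and the signal relay list near 0 (-0.060, 0.052 and -0.063).

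The genes most like the 9 in their pattern over the 14 arrays were ranked by Pearson's r with the mean of the 9, among 12384 other genes, as a description. The first was Ighv14-2, an immunoglobulin heavy chain variable segment whose probes may match related segments, with r = 0.983. It was followed by Arhgef10 (r = 0.952), by Cd74 (r = 0.950), the invariant chain of MHC class II, and by Ebf1 (r = 0.948). The others were Rab33b (r = 0.944), Phf21a (0.937), Tnfrsf13c (0.936), Slc41a2 (0.934), Ralgps2 (0.931) and Cxxc5 (0.931). Without Instigator 3, the array farthest from the rest in the mean of the 9 genes, these 10 values ran from 0.888 for Phf21a to 0.975 for Ighv14-2. Such a ranking over few arrays carries the largest of many values and no test.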

How the data were processed

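Sca1-positive, cKit-negative mouse marrow cells were profiled on 14 Affymetrix arrays, grouped by sample title. The authors deposited linear intensity values for 22690 probe sets, for which the submitters' processing notes name RMA, affy and R 2.11.0 without options. The deposited intensity values were log2-transformed and not normalized again, and 64 array controls were left out. Probe sets were named from the platform annotation (20380 with 1 symbol, 691 with several and 1555 unnamed). Each gene was represented by its brightest probe set on average. The number of arrays limits the precision.

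Groups were compared by limma version 3.58.1 (R version 4.3.3) with lmFit and eBayes, all 14 arrays in 1 fit, with Benjamini-Hochberg adjustment over 22626 probe sets and a threshold of 0.05. The script was tested on simulated data. The labels do not tie arrays to separate animals. The p-values thus reflect only how these samples spread, possibly for technical reasons. No array pair was identical. The members, lists (13 lists, 137 of 166 genes measured), tests and alternatives were chosen with earlier results of these data known. Named genes are the 9, up to 4 of a list by size of difference in Instigator against Matrigel, and the 10 most alike. Syk, Btk, Ptpn6 and Pax5 were added for their place in the pathway after their values were seen. The promoter search was planned for Cd79a, Cd79b, Ms4a1 and Blk and was widened to all 9 genes. Same-numbered arrays were checked for pairing and had correlations of deviations from -0.20 to 0.27, so numbers were not taken as pairs. Figures used Python 3.11.15 and matplotlib 3.10.9.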

Additional observations from a re-analysis of the deposited data

Results flagged for a closer look

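Of 36 sets of 4 or 5 arrays (12 probe sets in 3 groups), 1 held an array far from the others by Dixon's ratio, where chance flags about 1 in 20. Cd22 at 1419768_at was 8.32 on Matrigel 4, against 9.08 for the nearest of the other Matrigel arrays. Without Matrigel 4, 5 of the 9 genes (Cd79a, Cd79b, Ms4a1, Cd72 and Cr2) had an unadjusted p under 0.05 in Instigator against Matrigel, against 6.17% of genes, and 0 passed limma's adjusted test. The Fcer2a groups then did not overlap (1 of 9 genes, against 3.33% of all genes). Matrigel 4 was the lowest of its group at 8 of the 9 genes. Leaving it out therefore raised the Matrigel means and widened the differences.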

How the results depend on the processing

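None of the 9 genes passed limma's adjusted test under any of the alternatives run. Of the recomputed values, 139 of 141 for whole comparisons and 813 of 828 for single probe sets kept their direction and side of the threshold, or moved by less than the spread between arrays. None of the 9 genes was near the threshold, so staying on its side tells little. Counted among the 139 is the median of Instigator against Non-instigator that moved from -0.35 to -0.074 without Instigator 3. The count of called probe sets in Instigator against Matrigel was 1 without Instigator 4 and 1 without Instigator 4 and Matrigel 3, against 0 otherwise (0 to 1 over the left-out arrays), and it was 0 throughout in the other comparisons. Over the left-out arrays, Non-instigator against Matrigel ran from -0.19 to 0.072 for Cd72 and from -0.40 to 0.0096 for Cr2. Instigator against Non-instigator ran from -0.39 to 0.16 for Cd22 at 1419768_at, from -0.21 to 0.10 for Blk, from -0.35 to 0.12 for Blnk, from -0.31 to 0.14 for Fcer2a at 1422122_at and from -0.075 to 0.038 at 1451713_a_at. That dim set also turned to 0.014 with array weights and to 0.035 without Instigator 4 and Matrigel 3. The causes were not tested. In the replicate block fit the medians of the 9 genes were -0.51, -0.32 and -0.35 in the order of the report, and 0 probe sets were called. Of 26 matches of an array to another group, 4 were best with the same number. Quantile normalization gave medians of -0.39, -0.20 and -0.32.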
